A study of Mus musculus with 6 samples.

Results

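The region described here is the gene-poor flank on the far side of the Sox2 control region (SCR) from Sox2, from 20 to 500 kb past the 4C bait. Its members are the DpnII fragments of mouse chromosome 3 whose midpoint falls at chr3:34680501-35160500 (mm9). These are 1183 of the 391360 fragments in each file, and they were chosen by position alone. The 1141 fragments at the same distances on the other side of the bait, the Sox2 side, served for comparison.

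The SCR bait was profiled in 3 libraries of 4C, a method that sequences the fragments ligated to 1 chosen fragment and so counts its contacts along the chromosome. Both ES libraries came from J1, a mouse embryonic stem cell line of the 129S4/SvJae strain. The third library came from neural precursors (NPC) obtained in vitro over 6 days without LIF, with 5 μM retinoic acid in the final 4 days. The labels give J1 as the source of the NPC, whereas the Methods give F1 ES cells. In every library chromatin was fixed with 2% formaldehyde for 10 min, nuclei were treated with 0.4% SDS, and DpnII and Csp6I were the restriction enzymes. No agent or allele other than the differentiation separates the groups in the labels. With 2 ES libraries and 1 NPC library, an exact permutation test of a single value cannot go below p = 0.333 (one-sided), and the fits across all steps take the spread from the ES libraries. 4C counts hold no expression values, so the labelled cell types were not checked against markers here.

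The SCR is a cluster of enhancers downstream of Sox2, which encodes a transcription factor needed in both pluripotent and neural precursor cells. In ES cells the SCR drives Sox2 and contacts its promoter, while neural cells use other Sox2 enhancers. Contacts of any bait decline with linear distance, and the decline is often steeper past the edge of a topologically associating domain, where the insulator protein CTCF is commonly bound. A flank without genes gives a view of this decline that is not interrupted by promoters.

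None of the genes in GENCODE vM1 overlapped the flank (0 genes), against 7 on the Sox2 side. Those 7 include Sox2 at chr3:34548927-34551383, whose near end lies 109 kb from the bait, and the long noncoding RNA Sox2ot at chr3:34003360-34581541, whose near end lies 79.0 kb away. Past the flank the next annotated genes were a U6 small nuclear RNA at 974 kb and Atp11b, which encodes a phospholipid-transporting ATPase, at 993 kb. Fragments of the flank resembled those of the Sox2 side in median length (269 against 278 bp), in GC content (43.8% against 43.4%) and in the share holding a GTAC site of Csp6I (43.2% against 44.3%).

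Contacts are counted on single fragments, so the sequences of 3 of them are shown to make clear what a unit of signal is on this flank. They are the fragments of at most 300 bases, beyond 50 kb, with the highest lowest value over the 3 libraries in RPM, the reads of a fragment per 1000000 reads of the library on chromosome 3. Each is printed 5′ to 3′ on the plus strand of mm9, with the DpnII sites at both ends in capitals.
Fragment 60.7 kb from the bait, chr3:34721118-34721291: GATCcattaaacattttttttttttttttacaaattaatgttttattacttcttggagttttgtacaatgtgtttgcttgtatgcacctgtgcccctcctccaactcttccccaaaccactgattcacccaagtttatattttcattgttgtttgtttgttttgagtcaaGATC
Fragment 124 kb from the bait, chr3:34784831-34784865: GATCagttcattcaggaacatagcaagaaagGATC
Fragment 325 kb from the bait, chr3:34985792-34985820: GATCctgttatagaataacgaatccGATC
The fragment at 60.7 kb, which holds 1 GTAC site, had 3869 reads in ES replicate 1, 4377 in ES replicate 2 and 1474 in NPC. The fragment at 124 kb, of 31 bp between DpnII sites and without a GTAC site, had 9422, 3698 and 5182 reads in the same order. The fragment at 325 kb, of 25 bp and also without a GTAC site, had 7733, 2106 and 4220 reads. Since reads chose these fragments, their values are a description. All 3 were found in every library, and in RPM NPC was above both ES libraries at 124 and 325 kb and below both at 60.7 kb.

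The files hold between 2889643 (NPC) and 6447786 (ES replicate 1) reads on chromosome 3, and counts were neither normalised nor freed of PCR duplicates. A read was found on 34.3% (ES replicate 1), 43.2% (ES replicate 2) and 46.1% (NPC) of the fragments up to 1.5 Mb from the bait, so the deepest library reached the fewest fragments. On the flank the same shares were 64.9%, 76.1% and 77.6% of the 1183 fragments, with 95% Wilson intervals of 62.2 to 67.6%, 73.6 to 78.4% and 75.1 to 79.9%. By value, ES replicate 1 lay below ES replicate 2 and NPC. These intervals take the 1183 fragments of 1 library as independent draws, and the intervals of read shares below do so for reads. Neither kind covers the spread between libraries, and repeated reads of 1 ligation cannot be told from separate ligations.

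By reads, the flank took a larger part of chromosome 3 in NPC than in ES. It held 12.3% of all chromosome 3 reads in ES replicate 1 (792792 reads), 14.4% in ES replicate 2 (564606 reads) and 22.9% in NPC (661867 reads). The 95% Wilson intervals were 12.27 to 12.32%, 14.38 to 14.45% and 22.86 to 22.95%. The ES mean was 13.4% ± 1.5 (SD, n = 2), and the NPC value was above both ES values. The Sox2 side went the other way, from 38.2% and 36.7% in ES to 14.5% in NPC. Reads on the flank were therefore 0.322 and 0.393 times those on the Sox2 side in the ES libraries (mean 0.357 ± 0.0499, SD, n = 2) and 1.58 times in NPC. Thus the flank held fewer reads than the Sox2 side in both ES libraries and more in the NPC library. These ratios rest on the number of reads. Counted by fragments with at least 1 read, the ratio was 1.12, 1.09 and 1.16, above 1 in all libraries. The flank then held 14.2%, 11.7% and 9.87% of the chromosome 3 fragments with a read. By this count its share was lowest in NPC, the reverse of the order by reads.

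Within the flank, reads were spread farther out in NPC. Starting at 20 kb, the distance that took in 50% of the flank reads was 132 and 127 kb in the ES libraries (mean 130 ± 3.82 kb, SD, n = 2) and 187 kb in NPC. At the same distances on the Sox2 side it was 94.9, 96.1 and 91.6 kb. Up to 75% of flank reads were reached at 319 kb in ES replicate 1, 259 kb in ES replicate 2 and 318 kb in NPC, so at this level NPC did not stand outside the ES libraries. On fragments with a GTAC site the distance for 50% was 180, 125 and 186 kb, which brought NPC close to ES replicate 1. On the Sox2 side 75% of the reads were reached by 113, 118 and 166 kb.

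**Figure D1:**
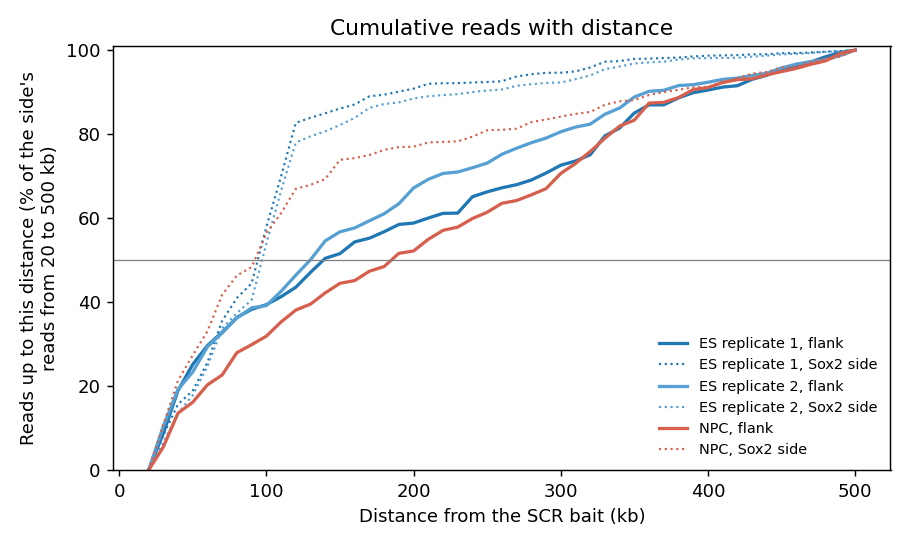
The x axis is distance from the SCR bait in kb and the y axis the percentage of a side's reads between 20 and 500 kb that lie up to that distance, for each of the 3 libraries (solid lines, flank; dotted lines, Sox2 side). The grey line marks 50%, which the flank reached at 132, 127 and 187 kb in ES replicate 1, ES replicate 2 and NPC, beyond all Sox2-side values of 91.6 to 96.1 kb.

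For the course with distance, 4C signal was taken as the mean RPM over the fragments of a step, in steps of 20 kb. In the nearest step of the flank, from 20 to 40 kb, the signal was 467 in ES replicate 1, 554 in ES replicate 2 and 623 in NPC. In the step from 80 to 100 kb it had come down to 87.4, 99.1 and 209. This is 0.187, 0.179 and 0.335 of the nearest step. Of the 43 fragments from 80 to 100 kb, 29 had an end whose sequence occurs once in mm9. In the nearest step all 50 had such an end. On the 29 fragments alone the signal at 80 to 100 kb was 130, 147 and 310, a smaller fall in each library. The signal thus fell to less in both ES libraries than in NPC over the first 100 kb. The NPC signal was above both ES values in each of the first 5 steps of 20 kb.

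The Sox2 side dipped within this range in ES but ended it above its nearest step. Its signal was 1199 and 997 in ES at 20 to 40 kb. It stood at 0.504 and 0.651 times that level at 40 to 60 kb and at 1.28 and 1.45 times at 80 to 100 kb. NPC had 618 at 20 to 40 kb, 0.434 of it at 40 to 60 kb and 0.562 of it at 80 to 100 kb. From 100 to 120 kb, the step that covers Sox2, the Sox2 side had a signal of 2371, 2212 and 381, against 113, 231 and 316 on the flank. In the next step, from 120 to 140 kb, the Sox2 side came down to 0.0764, 0.0924 and 0.183 of the step before. The flank made no such drop there, with 1.56, 1.06 and 0.620 of its step before. From 120 to 140 kb the flank had 176, 245 and 195 and the Sox2 side 181, 204 and 69.7, so the sides were about level in ES and apart in NPC.

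**Figure D2:**
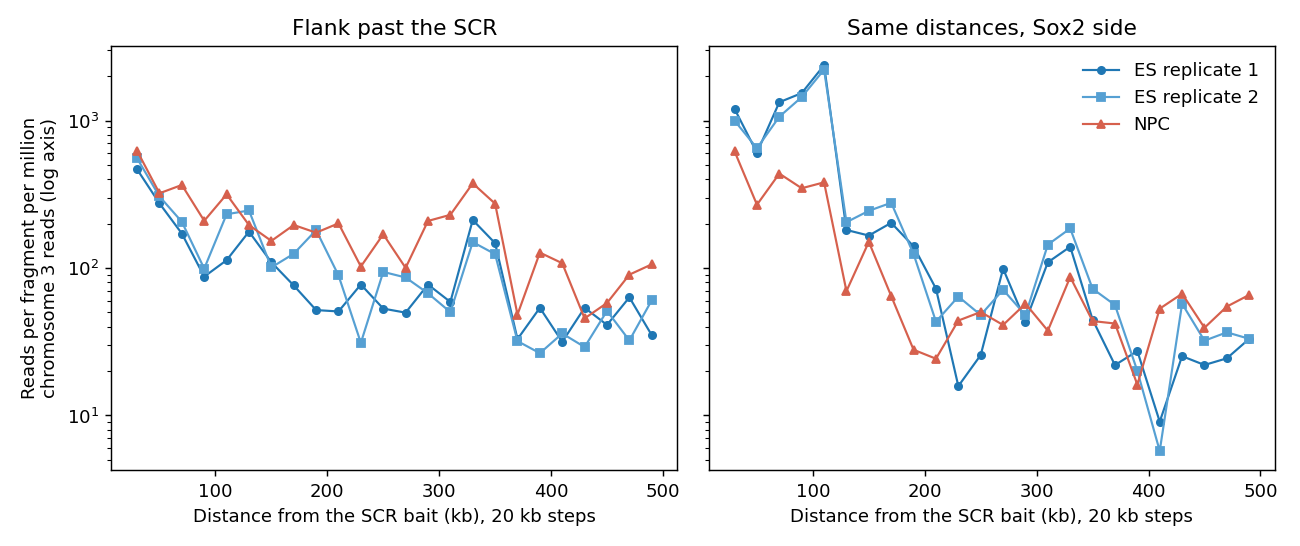
The x axes show distance from the SCR bait in steps of 20 kb and the y axes (log scale) 4C signal as mean RPM over the fragments of a step, on the flank (left) and at the same distances on the Sox2 side (right), with 1 line per library. On the Sox2 side ES signal stays high up to 120 kb and drops in the next step, while the flank declines from 467 to 623 in its nearest step and rises again from 320 to 360 kb.

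A decay slope was fitted as log2 signal on log2 distance over the 24 steps of 20 kb. It was -0.72 and -0.92 on the flank in ES (mean -0.82 ± 0.14, SD, n = 2) and -0.63 in NPC. On the Sox2 side the slope was -1.82, -1.64 and -1.04. Fitted over all 24 steps, the slope was thus shallower on the flank than on the Sox2 side in every library, and on the flank NPC had the shallowest. Up to 100 kb the order was the other way. On all fragments, the flank at 80 to 100 kb was at 0.187, 0.179 and 0.335 of its nearest step and the Sox2 side at 1.28, 1.45 and 0.562. The Sox2-side line also runs through the drop after 120 kb, so its slope is not an even rate. The distance of NPC from ES replicate 1 on the flank was smaller than that between the ES libraries. With linear distance in place of log2 distance, the slopes of NPC and ES replicate 1 were closer still (-0.48 and -0.49), with ES replicate 2 at -0.68. After quantile normalization the flank slopes were -0.69, -0.97 and -0.69, so NPC was then level with ES replicate 1.

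The decline was not even. Of the 23 step-to-step comparisons at 20 kb, 6 went down and 2 went up in all 3 libraries, and the other comparisons differed in direction between libraries. At 10 kb 12 of 47 went down and 6 went up in all 3. The libraries were alike in the order of the 48 steps of 10 kb to a limited degree. Spearman's rho was 0.634 between the ES libraries and 0.685 and 0.662 between each of them and NPC, and over the 40 steps beyond 100 kb it was 0.492, 0.596 and 0.585. These are descriptions across neighbouring steps that share each library. By rank order the ES libraries were thus no more alike than each was to NPC. Pearson's r of log2 signal over the 48 steps was 0.721 between the ES libraries. It was 0.746 between ES replicate 1 and NPC and 0.689 between ES replicate 2 and NPC. Much of a step came from few fragments: the 10 fragments with most reads held 19.6%, 15.8% and 14.4% of all flank reads.

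One broad rise stood out, 320 to 360 kb from the bait at chr3:34980501-35020500. From 300 to 320 kb the signal was 58.9, 50.2 and 229. At 320 to 340 kb it was 212, 150 and 375, which is 3.59, 2.99 and 1.63 times the step before. At 340 to 360 kb it was 147, 124 and 273. Both ES libraries and NPC were therefore up in these steps, and the NPC values were above both ES values in each. The first of these steps also had the highest flank signal beyond 200 kb in all 3 libraries at 20 kb resolution. It was not the largest step up everywhere: ES replicate 2 rose by 3.03 times into 240 to 260 kb and NPC by 2.63 times into 380 to 400 kb, each after a step with many fragments lacking a unique end. On fragments with a unique end the step up into 320 kb was the largest in both ES libraries (3.39 and 2.81 times). In NPC it was 1.54 times, and the largest was 2.15 times, into 280 to 300 kb. On all fragments the signal at 280 to 300 kb was 77.2, 67.4 and 208, so NPC was up before 320 kb. In steps of 10 kb the highest signal beyond 50 kb was at 320 to 330 kb in ES replicate 1 (251), at 100 to 110 kb in ES replicate 2 (271) and at 330 to 340 kb in NPC (439). The 83 fragments from 320 to 360 kb held 11.9%, 7.81% and 11.5% of the flank reads, and 88.0%, 91.6% and 94.0% of them had a read. At this distance on the Sox2 side 45.7%, 80.4% and 63.0% of the fragments had one, and the signal ratio of flank to Sox2 side was 2.00, 1.09 and 5.02. The Sox2 side also went up at 320 to 340 kb, to 139, 185 and 86.9, or 1.28, 1.29 and 2.31 times its step before. The fragment at 325 kb printed above lies in this rise. The fragment with most reads in each library took up 18.5%, 17.7% and 13.4% of the reads at 320 to 340 kb. The step up into 320 to 340 kb therefore did not rest on 1 fragment. At 340 to 360 kb the same shares were 19.8%, 20% and 32.6%. How far the NPC signal at 340 to 360 kb rests on 1 fragment was not tested.

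The sharpest fall between 20 kb steps of the flank followed directly. From 360 to 380 kb, at chr3:35020501-35040500, the signal was 32.9, 31.9 and 48.3, or 0.224, 0.257 and 0.177 of the step before. This was the largest fall between 20 kb steps in each library. The Sox2 side at the same distance kept 0.492, 0.775 and 0.962 of its step before. Sequence copies bear on this step. A prey read of 27 bases can be placed with certainty only where it occurs once in the genome, and 36 of the 62 fragments here have an end whose 27 bases occur once in mm9, against 42 of 46 in the step before. On those fragments alone the fall was to 0.356, 0.407 and 0.279, still the largest of the flank in all 3 libraries at 20 kb. In ES replicate 2 the fall into 140 to 160 kb was nearly as large (0.411). In 10 kb steps the largest fall of ES replicate 2 on such fragments was at 90 to 100 kb (0.182), against 0.416 at 360 to 370 kb.

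The 10 kb steps placed the low point at 360 to 370 kb, where the signal was 0.340, 9.85 and 10.6, and where 11 of 37 fragments had a unique end. A second low point, at 220 to 230 kb, had 2.02, 13.2 and 47.5, with a unique end on 17 of 37 fragments. The first place was the lowest of the flank in all 3 libraries. The second came next in both ES libraries, while in NPC the steps from 420 to 430 kb (17.8) and 390 to 400 kb (43.8) were also lower. At both places 10.8% to 27.0% of the fragments had a read. Over the whole flank 114 of 1183 fragments had no unique end, and 2.63% to 4.39% of those had a read. The part of repeated sequence in the depth of these steps was otherwise not tested. From 370 to 380 kb, where all 25 fragments had a unique end, the signal was back at 81.2, 64.6 and 104.

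**Figure D3:**
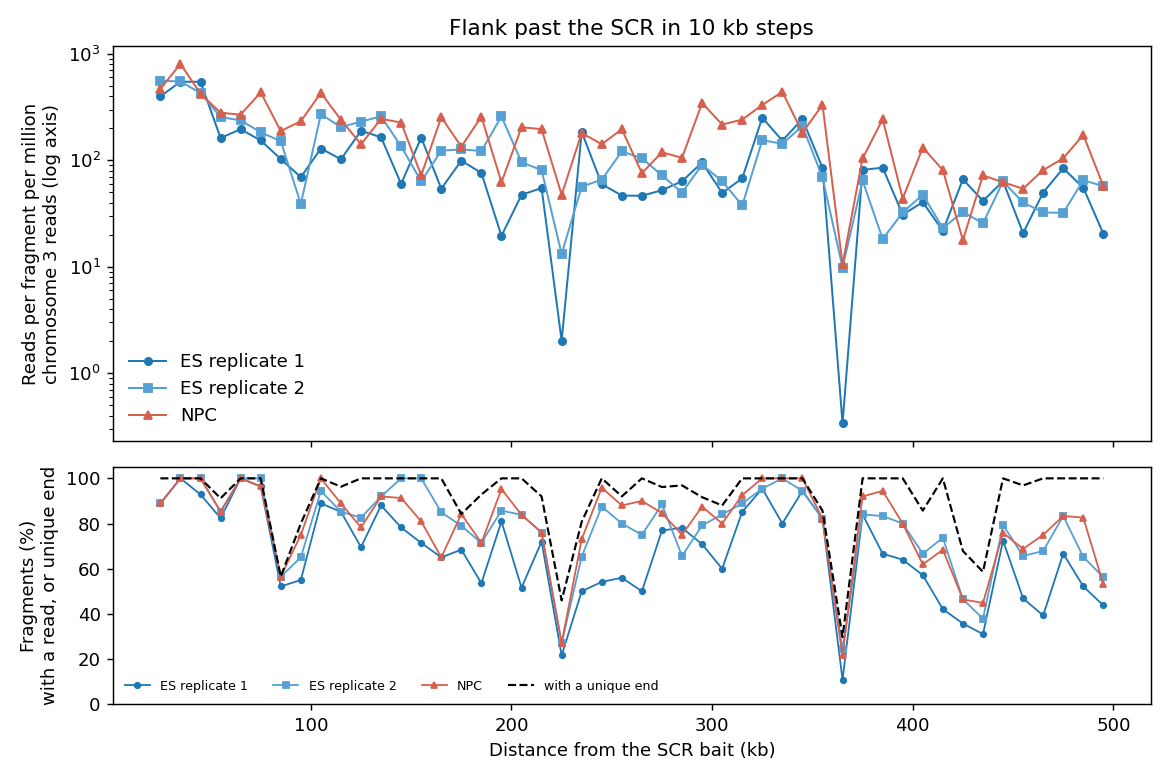
The upper panel plots 4C signal on the flank (mean RPM over the fragments of a step, log axis) against distance from the bait in 10 kb steps for the 3 libraries; the lower panel plots the percentage of each step's fragments with a read, and, dashed, with an end that occurs once in mm9. The lowest step in all libraries is 360 to 370 kb, where 11 of 37 fragments had a unique end, just past the rise from 320 to 360 kb. The step from 220 to 230 kb, with 17 of 37, is the next lowest in both ES libraries.

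Beyond this fall, from 380 kb to the end of the flank, the signal ran lower than in the rise in all libraries. In the farthest step of 20 kb, from 480 to 500 kb, it was 35.0, 60.4 and 106, with NPC the highest. Over 360 to 500 kb the flank signal was 44.0, 38.9 and 79.3 and the Sox2 side had 23.0, 31.9 and 46.1. In this stretch the flank was the higher side in every library, by 1.91, 1.22 and 1.72 times.

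Set against ES by distance, the flank signal in NPC was 1.18 times the ES mean from 20 to 60 kb, 1.96 times from 60 to 120 kb, 1.91 times from 120 to 320 kb, 2.04 times from 320 to 360 kb and 1.91 times from 360 to 500 kb. The Sox2 side had 0.507, 0.237, 0.485, 0.599 and 1.68 times over the same stretches. The flank was thus higher in NPC at all these distances, and least so nearest the bait. Of the 48 flank steps of 10 kb, NPC lay above both ES libraries in 37, below both in 5 and between them in 6. Among all 296 steps from 20 kb to 1.5 Mb on both sides, NPC lay above both in 46.6% and below both in 27.7%. RPM values are shares of 1 total, so a lower Sox2 side raises the values everywhere else in NPC, and how much of the flank's difference this makes up cannot be told from these counts.

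Step by step, the quasi-likelihood test of edgeR was run between ES and NPC after TMM scaling, with Benjamini-Hochberg adjustment over 290 tested steps on both sides. None of the 48 flank steps passed at an adjusted p of 0.05, in either direction. Over all tested steps 0% were called higher and 1.72% lower in NPC. At an unadjusted p under 0.05 there were 5 flank steps higher and 0 lower in NPC, among 14 higher and 28 lower over all 290 steps. The median log2 difference, NPC over ES, was 0.41 over the flank steps and -0.18 over all tested steps, and 33 of the 48 flank steps were above 0. The lowest adjusted p on the flank was 0.161, at 350 to 360 kb, with 15372, 7589 and 26858 reads and a log2 difference of 1.59 ± 0.48 (SE). Scaling decided this count: TMM moved the median difference by -0.50 on the log2 scale relative to library totals. With library totals 7 flank steps were higher in NPC and 0 lower, with a flank median of 0.91, among 15 higher and 15 lower over all steps. DESeq2 called 1 flank step (350 to 360 kb) among 13 higher and 27 lower.

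The sides were compared at equal distance, with each library as its own block. In ES, reads on the flank were lower than on the Sox2 side in 6 of the 48 distance steps and higher in 1 (edgeR, adjusted p under 0.05). Of all 144 tested steps up to 1.5 Mb, 4.17% were lower and 4.17% higher on the flank, and all 6 lower calls were among the 48 steps described here. The lower steps were 60 to 70 kb (log2 -3.04), 80 to 90 kb (log2 -2.10), 90 to 100 kb, 100 to 110 kb (log2 -3.78), 110 to 120 kb (log2 -3.54) and 160 to 170 kb. Most of these calls thus lie between 60 and 120 kb, the distances that on the Sox2 side lead up to and include Sox2. The deepest was 90 to 100 kb, at chr3:34750501-34760500, where the flank had 8952 reads in ES replicate 1 and 3049 in ES replicate 2 and the Sox2 side 329509 and 192453. This is a log2 ratio of -5.59 ± 0.77 (SE; edgeR adjusted p = 4.01e-09). At 80 to 90 kb 13 of 23 flank fragments had a unique end.

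The single step higher on the flank in ES was 290 to 300 kb, with 14767 and 8537 reads against 983 and 1495 on the Sox2 side. Its log2 ratio was 3.21 ± 0.92 (SE; edgeR adjusted p = 0.0147). It had no call in steps of 20 kb, where 0 of 24 flank steps were higher. DESeq2 called 7 flank steps higher and 15 lower in ES, among 48 higher and 25 lower over all 144 steps. Up to 120 kb all 10 steps had fewer reads on the flank in both ES libraries. From 120 to 500 kb, 25 and 20 of the 38 steps had more reads on the flank in ES replicates 1 and 2.

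In NPC the picture of the nearest steps was more even, and 5 of the 10 steps up to 120 kb had more reads on the flank. From 120 to 500 kb 34 of 38 did. The median log2 ratio of flank to Sox2 side was 1.45 over the 48 steps in NPC and -0.05 in ES, with 1.71 and 0.81 over all 144 steps. No step of the flank passed in NPC (edgeR), while 0.694% of all tested steps were called higher and 0% lower. At an unadjusted p under 0.05, 10 flank steps were higher and 0 lower, among 19 higher and 0 lower over all 144 steps. This fit has 1 NPC library, which was assumed to vary like the ES libraries. DESeq2 called 20 flank steps higher and 2 lower, among 57 higher and 7 lower over all 144 steps. Higher calls by DESeq2 were thus about as frequent on the flank as over all steps.

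The difference between sides itself differed between ES and NPC in 3 of the 48 steps, all with a higher flank to Sox2-side ratio in NPC (edgeR, adjusted p under 0.05). Of all 144 tested steps 2.78% were called in this direction and 0% in the other. At 90 to 100 kb the flank had 8952, 3049 and 13448 reads and the Sox2 side 329509, 192453 and 33889 in ES replicate 1, ES replicate 2 and NPC. The log2 ratio of flank to Sox2 side was -5.20, -5.98 and -1.33, and the change was 4.26 ± 1.16 (SE; edgeR adjusted p = 0.0257). Here the flank remained the lower side in NPC too.

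At 100 to 110 kb the flank had 14969, 19103 and 22361 reads and the Sox2 side 297078, 181320 and 19743. The change was 3.96 ± 1.16 (SE; edgeR adjusted p = 0.0302), and the sides were about level in NPC, with a log2 ratio of 0.18. At 160 to 170 kb the flank had 6984, 9643 and 14676 reads and the Sox2 side 47963, 34565 and 3035. The change was 4.58 ± 1.34 (SE; edgeR adjusted p = 0.0302), from log2 ratios of -2.78 and -1.84 in ES to 2.27 in NPC. In all 3 steps NPC lay above both ES libraries. In these steps the Sox2 side had a lower RPM in NPC and the flank a higher one.

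Just outside the threshold was the step from 310 to 320 kb, before the broad rise, with a change of 4.64 ± 1.46 (SE; edgeR adjusted p = 0.0504). Over the 48 steps the median change was 1.37 on the log2 scale, against 0.72 over all 144, and 39 of 48 were above 0. In reads, NPC had a higher flank to Sox2-side ratio than both ES libraries in 32 of the 48 steps and a lower one than both in 4. Among the 118 steps with reads on both sides in all libraries, 49.2% had the higher ratio in NPC. Ratios lower than both were counted only up to 500 kb, so that count has no share to compare it with. DESeq2 called 20 flank steps, all with the higher ratio in NPC, among 36 higher and 12 lower over all 144 steps. In steps of 20 kb the calls were the 3 consecutive steps from 60 to 120 kb.

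**Figure D4:**
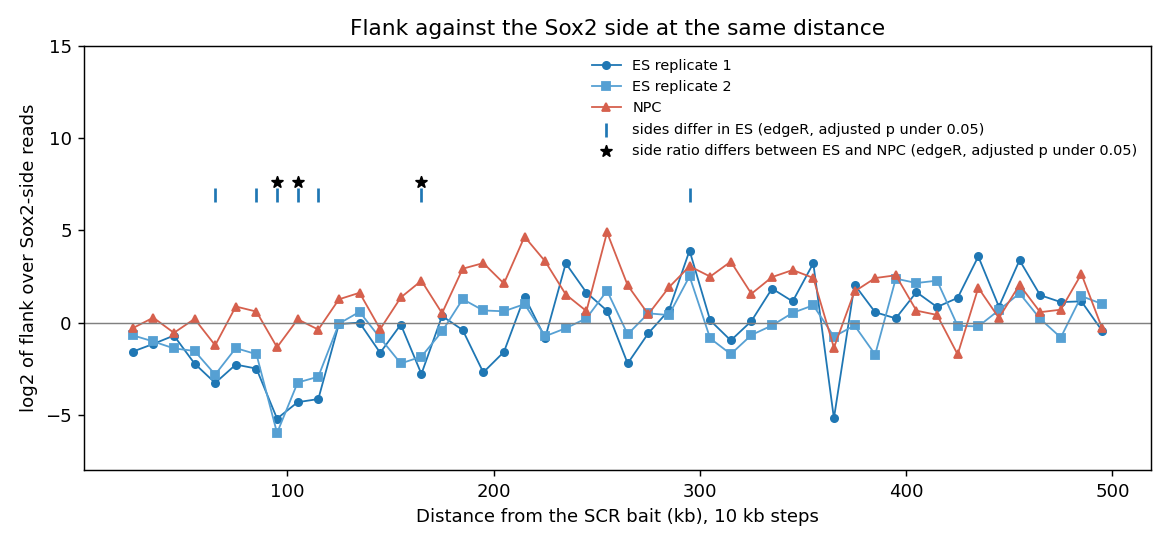
The y axis is the log2 ratio of flank reads to Sox2-side reads at the same distance from the bait (x axis, 10 kb steps) in each library, with 0 meaning equal reads; ticks and stars mark steps past an edgeR adjusted p of 0.05. Both ES libraries lie far below 0 from 60 to 120 kb, NPC lies nearer to 0 there, and NPC is above 0 in 34 of the 38 steps from 120 kb on.

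Matches to the core of the CTCF motif (12 letters, both strands) were located in the mm9 sequence as a feature the rule did not use. The flank held 7 matches in 6 of its 48 steps of 10 kb (12.5%), and the Sox2 side held 9 in 8 of 48 (16.7%). Of all 10 kb windows of chromosome 3, 20.7% held a match. Flank matches were at 29.9, 53.0, 150, 353, 369.1, 369.5 and 463 kb from the bait, and the match at 463 kb alone was on the minus strand. In the rise from 320 to 360 kb there was 1 match, at chr3:35013527-35013538 on the plus strand, 353 kb from the bait, shown because it lies 1 step before the fall: ccagcagagggc. The pair at 369.1 and 369.5 kb lies in the step of lowest signal. A match is only a run of letters, and binding of CTCF was not analysed here.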

How the data were processed

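The values are counts of reads per DpnII fragment of chromosome 3, as deposited. The authors removed the bait part of each read (2 mismatches allowed), aligned the other 27 nt to mm9 and assigned reads to fragments. Processing notes of the submitters name bcl2fastq and Bowtie 1.0.0, and their user guide leaves out fragments with over 2% of reads. How Bowtie treated reads with several matches is not given in the sources used here. The paper and the guide both call the 2 ES libraries biological replicates. How the cultures were separated is not described, so how much of the spread behind the p-values is technical is not known. All 391360 midpoints matched DpnII fragments of mm9. Fragments were grouped in steps of 10 and 20 kb by distance from position 34660500.

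Reads per step from 20 kb to 1.5 Mb were tested with edgeR 4.0.16 (R 4.3.3; quasi-likelihood, filterByExpr with a minimum count of 10, Benjamini-Hochberg threshold 0.05). ES against NPC used TMM and all steps of both sides. Side tests used library as a block and no further scaling. DESeq2 1.42.0 was an alternative, with size factors of 1 for the sides. Alternatives were scaling, filter, step size, counts capped at the 99th percentile, fragments with a read and quantile normalization (computed in Python). Others were fragments with a GTAC site, 30 kb around the bait left out and each ES library left out. Fragments with a unique end, an offset for fragment number and the left-out libraries of the side ratios were added after the data were seen. Other scripts ran in Python 3.11.15. The edgeR tests were tried on simulated counts. For the sides these had a lower spread between libraries than the real fit (dispersion 0.913) and used the offset for fragment number. They do not show how well the side tests recover changes at the real spread. The region, steps and lists were chosen with earlier results of these data known. Named are the genes of the flank, Sox2, Sox2ot and the next genes; the nearest and farthest steps; the steps of largest fall and rise and of highest signal; the 5 steps of largest change past the threshold per direction and test; and 3 fragments. Other steps were named after their values were seen, among them 220 to 230, 310 to 320, 370 to 380, 390 to 400 and 420 to 430 kb and further steps given beside these. Libraries of the 3 other samples used other baits and were not analysed here.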

Additional observations from a re-analysis of the deposited data

Results flagged for a closer look

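The difference between the flank and the Sox2 side differed between ES and NPC in 3 steps of 10 kb, by the edgeR test of that change itself. The change in log2 ratio was 4.26 at 90 to 100 kb, 3.96 at 100 to 110 kb and 4.58 at 160 to 170 kb, and in each NPC lay above both ES libraries. Over the alternatives the adjusted p ranged from 1.77e-12 to 0.04 at 90 to 100 kb, from 8.24e-09 to 0.0559 at 100 to 110 kb and from 1.37e-07 to 0.04 at 160 to 170 kb. The lowest values came from DESeq2, and all rest on 1 NPC library. These ranges are over the alternatives in steps of 10 kb. In steps of 20 kb, none of the called changes covered 160 to 170 kb.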

How the results depend on the processing

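No paired analysis was possible because the NPC label carries no replicate number, so the groups share fewer than 2 numbers. For ES against NPC, flank steps called higher in NPC numbered 0 with TMM, 1 with DESeq2 and 7 with library totals, and the median log2 difference of 0.41 became 0.26 in 20 kb steps and 0.91 with library totals. For the sides in ES, DESeq2 called 7 flank steps higher and 15 lower (1 and 6 with edgeR), and 20 kb steps gave 0 higher. Over all 144 steps DESeq2 called 48 higher and 25 lower in ES, and 57 higher and 7 lower in NPC. In NPC, DESeq2 called 20 higher and 2 lower (0 and 0 with edgeR), and the median log2 ratio of 1.45 became 0.94 in 20 kb steps and 1.13 with an offset for fragment number. For the change of side difference DESeq2 called 20 flank steps (3 with edgeR), among 36 higher and 12 lower over all 144 steps. The median change was 1.47 to 1.55 with 1 ES library left out. Of the called steps, 2 missed the threshold under 1 alternative each in steps of 10 kb. These were 80 to 90 kb in ES with the offset (edgeR adjusted p = 0.0809) and the change at 100 to 110 kb with capped counts (edgeR adjusted p = 0.0559). Steps of 20 kb were not part of this count. With them, the higher flank at 290 to 300 kb in ES and the change at 160 to 170 kb had no call.

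Counting fragments with a read left the ES share (mean 13.0%) within the spread of the ES libraries and moved the other values: the flank to Sox2-side ratio to 1.1 in ES (mean), which turns its direction, and 1.16 in NPC, the distance holding 50% of flank reads to 245 and 255 kb, the slope to -0.18 and -0.12 and the NPC share to 9.87%, below both ES shares of 14.2% and 11.7%. With 30 kb around the bait left out, the NPC ratio was 1.68, the distances 153 kb (ES mean) and 202 kb and the NPC share 21.6%. Capped counts gave an NPC ratio of 1.57 and shares of 15.0% (ES mean) and 24.3%. Fragments with a GTAC site gave an NPC ratio of 1.56, an ES distance of 153 kb and an NPC share of 22.2%. Quantile normalization gave an NPC ratio of 1.52 and distances of 134 and 176 kb, and no share of chromosome 3, since it was run within 1.5 Mb. A linear distance axis gave slopes of -0.59 (ES mean) and -0.48. The median log2 side difference in ES, -0.05, lay near 0 and changed sign in 20 kb steps (0.05) and without ES replicate 2 (0.04).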
